A study of Homo sapiens with 18 samples.

Results

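Immunoglobulin variable (V) genes were followed as markers of clone identity in HG3, MEC2 and PCL12 cells. The members were chosen by their counts: of 56609 gene symbols in the count table, 317 began with IGHV, IGKV or IGLV, and the 49 of these with at least 10 counts in at least 1 library were selected. They comprised 29 of 138 IGHV rows, 4 of 103 IGKV rows and 16 of 76 IGLV rows, and 18 of them were annotated as pseudogenes. HG3, MEC2 and PCL12 are established, EBV-positive cell lines of chronic lymphocytic leukemia (CLL), a leukemia of mature B cells. Each line was sequenced in 3 samples stimulated for 4 h with 2.5 μg/ml CpG-ODN2006, an oligonucleotide that activates TLR9, and in 3 unstimulated samples, which gave 18 libraries in 6 groups. The series gives each replicate number 1 stimulated and 1 unstimulated sample, and no source used here says whether the replicates were separate cultures, so that p-values may measure technical spread only.

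A B cell builds its heavy chain from 1 V, 1 D and 1 J segment and its light chain from 1 V and 1 J segment, by recombination of DNA on the chromosome. The daughter cells of that B cell keep the same joined segments, and the V genes in the RNA of a leukemic line therefore act as a label of its clone. The heavy chain pairs with either a kappa or a lambda light chain, and both are anchored in the B cell receptor with the CD79A and CD79B proteins.

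Library totals ran from 20382943 to 67308932 counts. B cell markers were present as labelled: 6 of 6 (MS4A1, CD79A, CD79B, PAX5, CD22 and BLK) reached 1 CPM (counts scaled to a common library size, from library totals) in every library, with sums of 1992 to 3611 CPM. The 4 monocyte markers summed to at most 1.87 CPM, the 3 erythroid markers to at most 0.134 CPM, the 3 NK cell markers to 0.579 to 10.7 CPM, and the 5 T cell markers to 35.0 to 129 CPM, of which 1 gene reached 1 CPM in all libraries. The mitochondrial share of counts was 20.2% in HG3 replicate 2 (unstimulated) and 19.7% in MEC2 replicate 2 (CpG), and 2.82% to 9.28% in the remaining libraries. V genes that led in MEC2 had counts in replicates 2 and 3 of PCL12, so PCL12 levels below are those of replicate 1 unless stated, and the values of replicates 2 and 3 are given apart.

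The germline sequences of the 6 leading V genes show what the counts were assigned to. They are the last 75 bases of each V segment in GENCODE 44 on GRCh38 (hg38), read 5′ to 3′ on the coding strand, with the codon of the cysteine near the V end in capitals. They are reference sequence, and the sequence of each clone was not analysed here.
IGHV1-2: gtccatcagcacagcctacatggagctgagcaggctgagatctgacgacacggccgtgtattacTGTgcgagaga
IGHV4-59: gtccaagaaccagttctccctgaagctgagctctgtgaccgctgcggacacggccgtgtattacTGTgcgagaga
IGHV3-30: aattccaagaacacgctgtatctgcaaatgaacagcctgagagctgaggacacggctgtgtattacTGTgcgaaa
IGLV2-23: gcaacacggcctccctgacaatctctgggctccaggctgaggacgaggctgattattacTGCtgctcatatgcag
IGLV3-21: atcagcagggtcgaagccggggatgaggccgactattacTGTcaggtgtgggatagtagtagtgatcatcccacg
IGKV4-1: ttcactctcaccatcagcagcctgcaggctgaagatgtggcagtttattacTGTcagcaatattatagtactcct

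The 3 heavy V genes lie on the minus strand of chromosome 14: IGHV1-2 at chr14:105986582-105987083, IGHV4-59 at chr14:106627249-106627825 and IGHV3-30 at chr14:106335082-106335613. The lambda genes lie on the plus strand, IGLV2-23 at chr22:22697789-22698407 and IGLV3-21 at chr22:22711689-22713203, and IGKV4-1 lies on the plus strand at chr2:88885397-88886153. No other annotated gene overlaps them. IGHV1-2, IGHV4-59 and IGHV3-30 share 66.9% to 68.7% of their aligned bases with each other, and IGLV2-23 and IGLV3-21 share 68.2%.

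In HG3, 1 heavy V gene and a pair of lambda V genes carried nearly all V counts. IGHV1-2 held 98.3% of the IGHV counts over both treatments. Its level was 1155, 584 and 391 CPM in CpG-stimulated replicates 1, 2 and 3, and 1105, 150.1 and 393 CPM in unstimulated cells. Unstimulated replicate 2, rich in mitochondrial counts, was lowest, and the ranges of the treatments overlapped. In these bulk libraries, fewer cells of a clone and less RNA per cell cannot be told apart.

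IGLV2-23, a lambda V gene, stood at 1919, 1366 and 647 CPM after CpG and at 1774, 890.5 and 677 CPM without it. IGLV3-21, the second lambda V gene, gave 1658, 1169 and 564 CPM after CpG and 1422, 943 and 607 CPM without it. Both lambda genes were thus abundant in all 6 HG3 libraries, with 80.2 to 106 counts of IGLV3-21 per 100 counts of IGLV2-23. Their shares of the IGLV counts over both treatments were 53.6% and 46.1%. Per kilobase of exon, the unstimulated means were 2219 CPM for IGLV2-23 and 1646 CPM for IGLV3-21, and IGHV1-2 stood at 1318 CPM per kilobase. Values per kilobase assume reads from the whole transcript, and if the libraries were made with the QuantSeq kit of the labels, which reads 3′ ends, length should not be divided out. IGLV3-21 lies 13281 bases downstream of IGLV2-23, and the 2 V rows annotated between them, IGLVVI-22-1 and IGLV3-22, held 0 counts in all 18 libraries. Counts do not show whether one cell made both lambda transcripts. IGKV4-1, the leading kappa row, had 0 to 48 counts per HG3 library.

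In MEC2, IGHV4-59 led the heavy V genes and IGKV4-1 the kappa V genes. IGHV4-59 stood at 395, 162 and 306 CPM after CpG and at 316, 387 and 238 CPM in unstimulated replicates 1 to 3. CpG replicate 2, the other library rich in mitochondrial counts, was lowest, and the unstimulated values fell inside the CpG range. IGHV4-59 took 96.2% of the IGHV counts over both treatments. IGKV4-1 gave 1355, 447 and 1346 CPM after CpG and 1204, 1305 and 1519 CPM without it, again lowest in CpG replicate 2, and 97.0% of IGKV counts. A second kappa V gene, IGKV3D-11, was steady across MEC2 at 35.7, 29.9 and 37.4 CPM after CpG and 35.8, 34.4 and 37.1 CPM without it. It made up 2.94% of the kappa V counts over both treatments. Its unstimulated mean was 80.6 CPM per kilobase against 2496 for IGKV4-1. In the lambda locus the leading row, IGLV5-52, averaged 2.94 CPM in the unstimulated libraries and was highest, at 6.78 CPM, in CpG replicate 2.

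PCL12 replicate 1 expressed IGHV3-30 at 949 CPM after CpG and at 1115 CPM without it. This gene took 98.7% of its IGHV counts. IGKV4-1 stood at 2772 and 3368 CPM in the same libraries, with 99.99% of the IGKV counts of the line. MEC2 and PCL12 therefore shared their leading kappa V gene and differed in their heavy V gene. Lambda rows were low: IGLV6-57 was at 3.42 CPM after CpG and 14.9 CPM without it, and IGLV5-52 at 5.62 and 7.31 CPM, so that their order differed between the treatments.

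**Figure D1:**
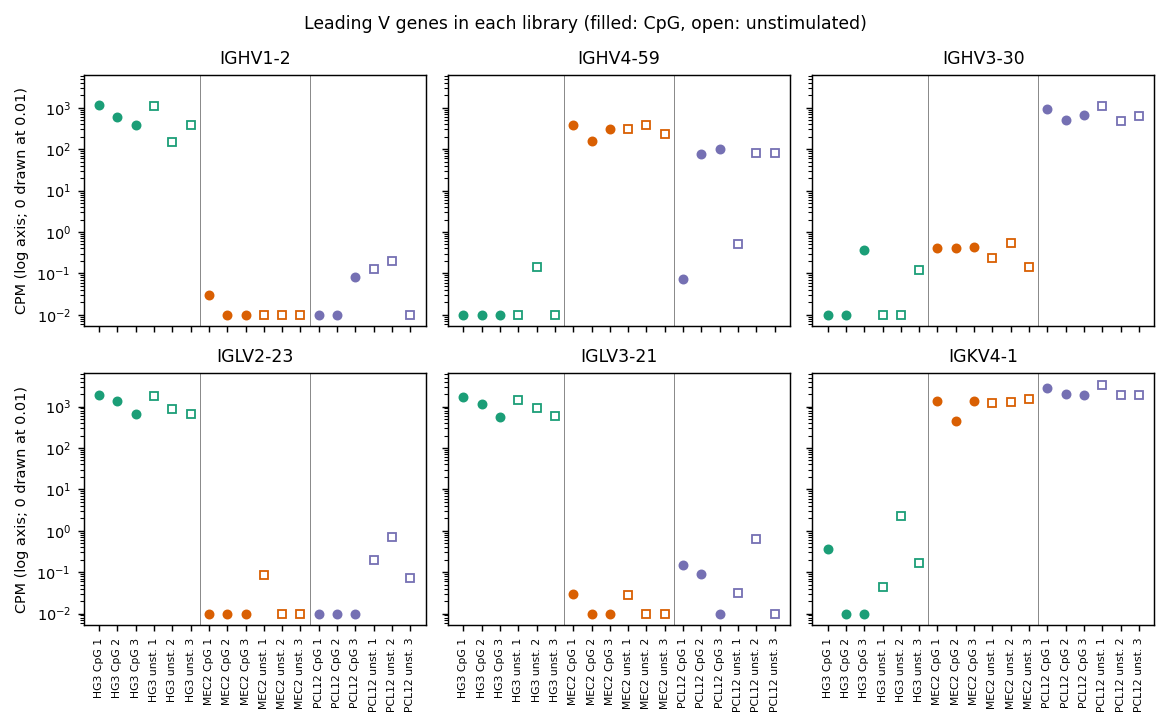
Level of the 6 leading V genes in each of the 18 libraries, in CPM on a log axis, with filled points for CpG and open squares for unstimulated samples and values of 0 drawn at 0.01. IGHV1-2 and both lambda genes were high in HG3, IGKV4-1 was high in MEC2 and PCL12, and IGHV4-59 stood at 77.6 to 100.4 CPM in PCL12 replicates 2 and 3.

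The leading heavy V gene was the same in 18 of 18 libraries of the respective line. The leading light V gene was the same in 17 of 18, and in unstimulated HG3 replicate 2 IGLV3-21 passed IGLV2-23 (943 against 890.5 CPM). Dividing by exon length, with the same limit, changed the leading gene in 0 of 9 combinations of locus and line. The levels by line chose these genes and are given as a description, with no test.

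Several rows with a sequence close to a leading gene had small counts in the same line. The sequences below are shown to let near-identical rows be compared, with the bases that differ from the named partner in capitals.
IGHV3-33: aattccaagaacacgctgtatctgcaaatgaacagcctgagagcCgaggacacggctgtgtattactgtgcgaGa
IGLV2-14: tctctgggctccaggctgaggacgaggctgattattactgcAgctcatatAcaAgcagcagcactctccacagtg
IGKV3-11: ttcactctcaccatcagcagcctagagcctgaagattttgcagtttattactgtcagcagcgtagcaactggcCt
IGKV3D-11: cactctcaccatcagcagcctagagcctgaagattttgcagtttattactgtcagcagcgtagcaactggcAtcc
IGHV3-33 was compared with IGHV3-30 (2 differences in 75 bases), IGLV2-14 with IGLV2-23 (3 in 54), and IGKV3-11 with IGKV3D-11 (1 in 73). IGHV3-33 shares 99.1% of its aligned bases and 117 windows of 100 bases with IGHV3-30, so that reads in those windows cannot be assigned to either, and it held 0.0694% and 0.197% of the IGHV3-30 counts in PCL12 replicate 1. IGLV2-14, with 95.8% identity and 0 shared windows, held 0.116% to 0.209% of the IGLV2-23 counts in HG3. Its counts were 0 in all 12 libraries of the other lines. IGHV4-61 shares 98.0% of its aligned bases and 134 windows of 100 bases with IGHV4-59, yet it did not follow that gene: it had 2 to 42 counts per MEC2 library, and 35 and 6 in PCL12 replicate 1, where IGHV4-59 had 5 and 16. IGKV3D-11 and IGKV3-11 share 98.7% of bases, and over all libraries held 8400 and 6 counts. IGHV1-3 is less like IGHV1-2 (88.5%), and had 187 to 484 counts per HG3 library, or 0.667% to 2.70% of the IGHV1-2 counts in 5 libraries and 5.87% in unstimulated replicate 2, where IGHV1-2 was lowest.

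The remaining members were low. Of the 49, 34 did not reach 100 counts in any library. IGHVII-60-1, IGKV1OR2-108, IGLV3-30 and IGLV1-50 lay just inside the threshold with at most 10 counts, and IGLV4-60, IGLV8-61, IGHVII-33-1, IGHV3-37, IGKV1D-43 and IGLV1-41 lay just outside it with at most 9. In total, 20 members had a level at least 10 times that of each other line, 5 in HG3, 5 in MEC2 and 10 in PCL12. The share over all 31872 tested genes was 5.27%. Both figures use the values that chose the members, and are a description. Counts and library totals were pooled by line, with a floor of 3 counts, so low rows depend on depth. For example, IGHVIII-13-1, counted for PCL12, had 17 counts in CpG replicate 1, the deepest library, and 0 in the other 17 libraries. IGLV5-52 was present in every line, at 49 to 296 counts in MEC2, 65 to 378 in the 6 PCL12 libraries and 15 to 159 in HG3. Members with 0 counts in all libraries of a line numbered 19 in HG3, 16 in MEC2 and 12 in PCL12 replicate 1.

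**Figure D2:**
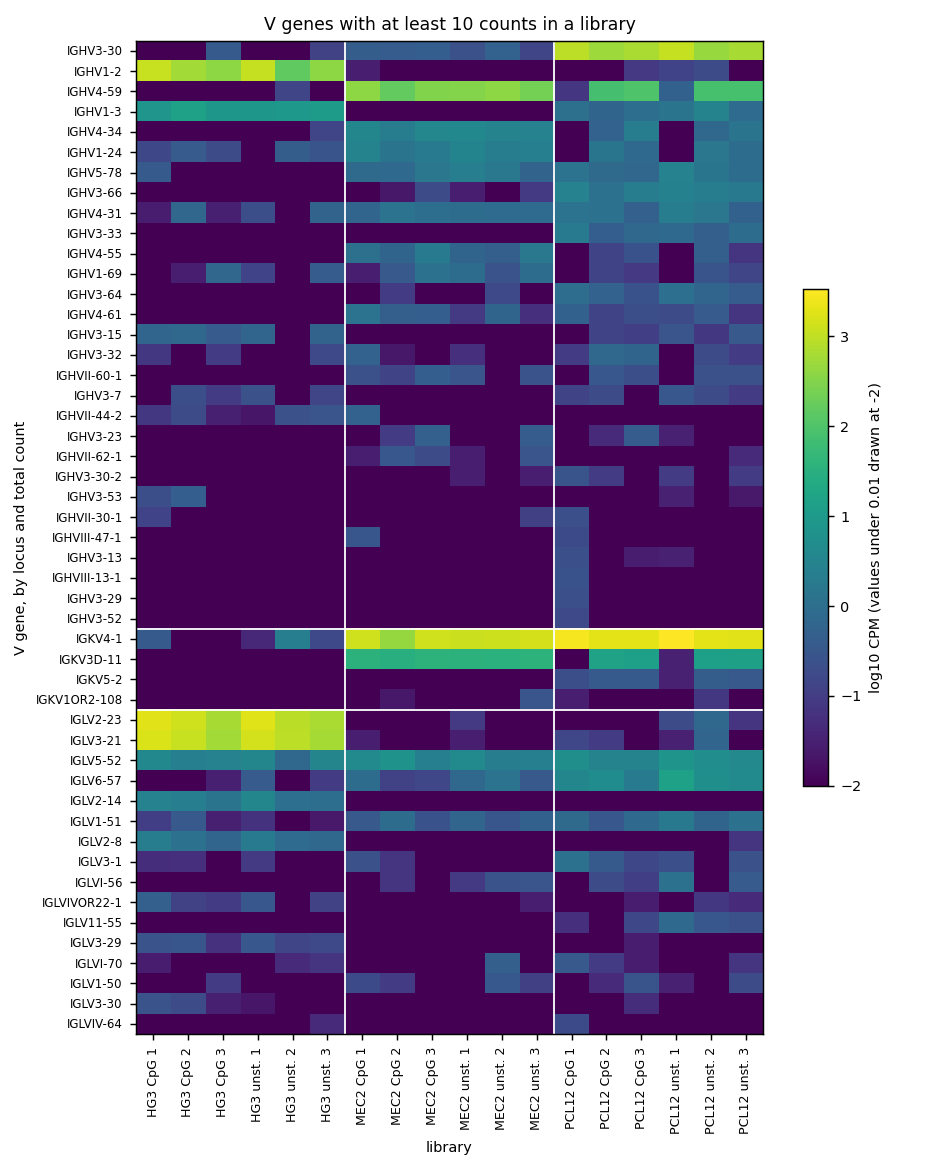
Level of the 49 V genes (rows, by locus and total count) in the 18 libraries (columns), as log10 CPM with values under 0.01 drawn at -2. Each line shows 1 or 2 bright rows per locus in use, and 34 of the 49 rows stay under 100 counts in all libraries.

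The D, J and constant (C) rows were not used to choose the members. IGHD3-22, a D segment, held 96.6% of the D counts in HG3 (49 to 300 counts per library) and was at 0 in the 12 other libraries. IGHD2-2 held 98.9% of the D counts of PCL12 replicate 1, with 418 counts in the CpG library and 206 in the unstimulated one. In MEC2 the D counts were split, 52.8% on IGHD6-25 (156 to 1021 counts per library) and 1995 counts in all on IGHD1-26. No D row led in more than 1 line. The J segments separated the heavy chains less, since IGHJ6 led in all 3 lines with 34.3% to 44.1% of the J counts.

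The constant genes followed the light chain of each line. IGHM, the constant gene of IgM, took 88.0% of the heavy constant counts in HG3, 94.5% in MEC2 and 93.4% in PCL12 replicate 1. IGKC, the kappa constant gene, stood at 847 to 2473 CPM in MEC2, at 4469 and 5471 CPM in PCL12 replicate 1 (2949.9 to 3268 CPM in replicates 2 and 3), and at 0.0970 to 1.46 CPM in HG3. The lambda constant genes IGLC2 and IGLC3 ranged over 911 to 3561 CPM and 820.2 to 3316 CPM in HG3, and each stayed at or under 6.82 CPM elsewhere. The groups of kappa and lambda libraries did not overlap for any of these 3 genes. IGHA1, a constant gene of IgA, was at 249 and 318 CPM in PCL12 replicate 1, at 127 to 175 CPM in replicates 2 and 3, and at or under 5.05 CPM in HG3 and MEC2.

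Among genes of receptor assembly and V gene regulation, RAG1 and RAG2, which cut the DNA during V(D)J recombination, were at or under 0.829 CPM in every library. POU2AF1, a coactivator at immunoglobulin promoters, was at 301 to 629 CPM across the lines. After CpG, 0 of the 34 genes of this list that were tested (37 listed) had an adjusted p under 0.05 in edgeR in any line. At a nominal p under 0.05 there were 0 in HG3, 3 in MEC2 (CD79B, IGHG3 and IGLL5, 2 up and 1 down) and 0 in PCL12, against 3.73%, 2.46% and 2.09% of all tested genes in these lines.

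PCL12 replicates 2 and 3 had counts of the V genes seen in MEC2 in both treatments. IGHV4-59 was at 0.0743, 77.6 and 100.4 CPM in CpG replicates 1, 2 and 3 of PCL12 and, in the same order, at 0.516, 81.1 and 82.5 CPM in unstimulated cells. Relative to the mean of the 6 MEC2 libraries, replicates 2 and 3 stood at 25.8% to 33.4% (median 27.2%, n = 4), and replicate 1 at 0.0247% and 0.171%. IGKV3D-11 gave 0, 15.4 and 13.4 CPM after CpG and 0.0322, 13.5 and 14.1 CPM without it, or 38.3% to 43.8% of MEC2 in replicates 2 and 3. For both genes, all 4 libraries of replicates 2 and 3 lay above both libraries of replicate 1 and below all 6 of MEC2. IGHV4-34, IGHV1-24 and IGHV4-55, the other V genes that were at least 10 times higher in MEC2 than in HG3 and in PCL12 replicate 1, had 3 to 80 counts in replicates 2 and 3 and 0 in replicate 1. Their levels in replicates 2 and 3 spread more widely, from 6.78% of MEC2 (IGHV4-55) to 68.4% (IGHV4-34). IGHV4-34 and IGHV4-55 share 93.0% and 91.5% of their aligned bases with IGHV4-59 and 0 windows of 100 bases, and whether they hold reads of IGHV4-59 was not tested. Their absence from replicate 1 was part of that choice.

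The leading V genes of PCL12 were lower in the same libraries than in replicate 1. IGHV3-30 stood at 510.3 and 657 CPM in CpG replicates 2 and 3 and, unstimulated, at 482 and 629 CPM, which is 53.8%, 69.2%, 43.2% and 56.5% of replicate 1 of the same treatment. All 4 values were under both of replicate 1. IGKV4-1, which both lines use, was at 1980.5 and 1956 CPM after CpG and at 1952 and 1893 CPM without it, between the MEC2 and the PCL12 replicate 1 levels. Among the low rows, some were not lower, such as IGLV6-57 at 143% of replicate 1 in CpG replicate 2 and IGHV3-33 at 117% in unstimulated replicate 3.

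The D segments, not part of the selection, followed the same libraries. IGHD6-25 had 51 and 118 counts in CpG replicates 2 and 3 of PCL12 and 58 and 167 in the unstimulated ones, at 20.6% to 35.6% of the MEC2 mean, and IGHD1-26 had 52 to 117 counts, at 23.3% to 30.8%. Both were at 0 in replicate 1. IGHD2-2, the D segment of PCL12, had 98.6% and 99.1% of the D counts in replicate 1 and 34.6% to 56.0% in replicates 2 and 3, a share that the added D counts also lower. Its own level was 6.21 CPM in CpG replicate 1 and 6.64 CPM in unstimulated replicate 1, 6.02 and 4.09 CPM in CpG replicates 2 and 3, and 4.26 and 3.68 CPM in the unstimulated ones. IGHD3-22, the D segment of HG3, was at 0 in all 6 PCL12 libraries. These are counts of gene rows: no clone sequence was compared, and the source of the counts was not tested.

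**Figure D3:**
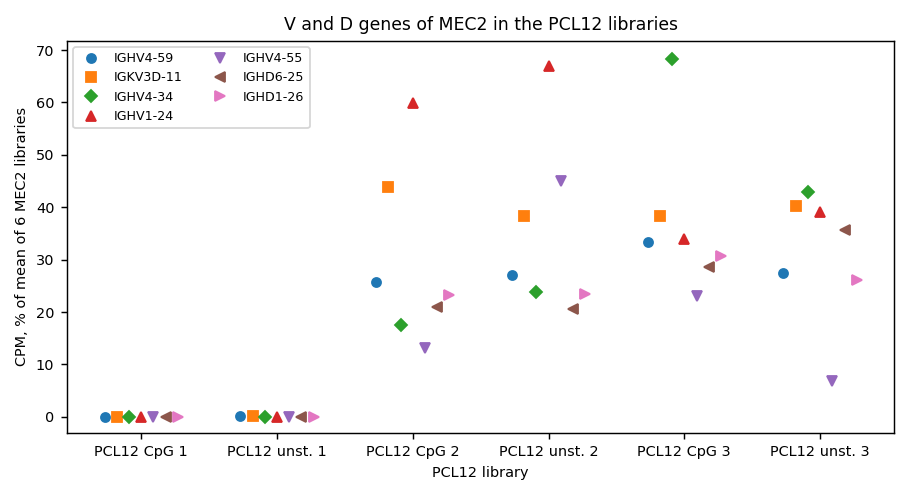
Level of 5 V and 2 D genes of MEC2 in the 6 PCL12 libraries (horizontal axis), as a percent of the mean CPM of the 6 MEC2 libraries (vertical axis). In replicate 1 all lie at 0.171% or less, and in replicates 2 and 3 IGHV4-59 lies at 25.8% to 33.4% and IGHD6-25 at 20.6% to 35.6%.

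Other lines' leading genes were close to 0 elsewhere. Over 62 values of a leading gene in libraries of another line (PCL12 replicates 2 and 3 left out for the MEC2 genes), 33 were 0, and the highest was 0.179% of the level in its own line (pooled counts over pooled library totals of that line, with PCL12 replicate 1 as the own line of IGKV4-1; IGHV4-59 in unstimulated PCL12 replicate 1, 16 counts, 0.171% of the mean of the MEC2 libraries). In unstimulated HG3 replicate 2, IGKV4-1 had 48 counts, 0.0764% of its level in PCL12 replicate 1 and 0.198% of that in MEC2. A count of 0 allows up to 3 counts per library, and these limits cover counting error only.

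The V counts were also set against the constant-gene counts of the same library, which do not depend on library size. In 5 HG3 libraries IGHV1-2 had 12.6 to 17.4 counts per 100 IGHM counts, and in unstimulated replicate 2 it had 3.03. IGLV2-23 gave 69.1 to 77.5 counts per 100 IGLC2 counts in the 5 libraries and 25.0 in that one, and IGLV3-21 gave 68.0 to 77.0 per 100 IGLC3 counts against 28.5. The constant genes were not low there: IGHM was at 4949 CPM, inside the range of the other HG3 libraries, and IGLC2, at 3561 CPM, was the highest of the 6. In MEC2, IGHV4-59 gave 5.78 to 6.94 counts per 100 IGHM counts in 5 libraries and 4.26 in CpG replicate 2, and IGKV4-1 gave 60.3 to 67.2 per 100 IGKC counts against 52.8. Unlike in HG3, the constant genes of that MEC2 library were the lowest of the line, IGHM at 3799.8 CPM against 4126 to 6087 and IGKC at 847 CPM against 1791 to 2473. These lowest values are those of the libraries with 20.2% and 19.7% mitochondrial counts, whose part in the result was not tested. PCL12 replicate 1 gave 9.17 and 8.83 for IGHV3-30 and 62.0 and 61.6 for IGKV4-1. Replicates 2 and 3, which had counts of the MEC2 V genes, gave 6.68 to 7.52 and 59.9 to 66.2.

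**Figure D4:**
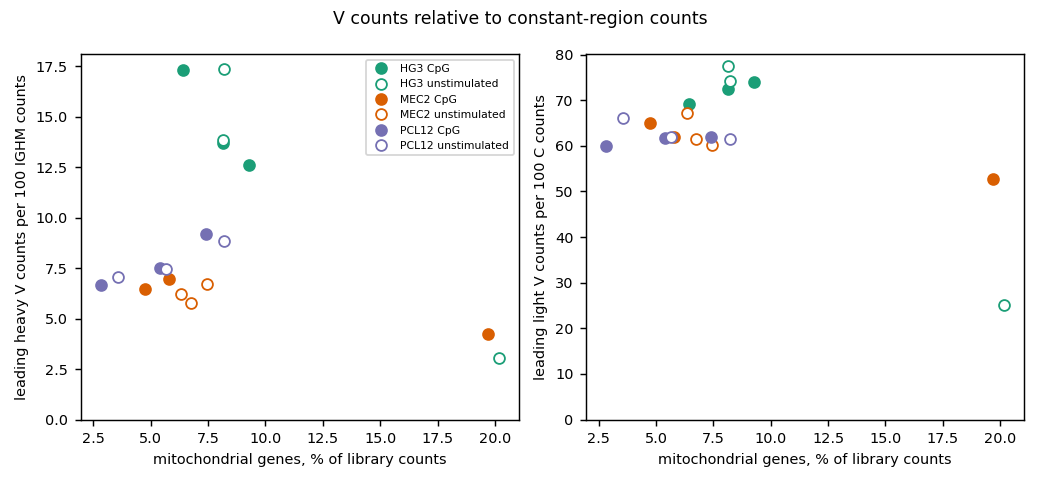
Counts of the leading heavy V gene per 100 IGHM counts (left) and of the leading light V gene per 100 counts of IGLC2 (HG3) or IGKC (MEC2, PCL12) (right), against the share of mitochondrial genes in each of the 18 libraries. The 2 libraries near 20% mitochondrial counts lie lowest in their line in both panels, at 3.03 and 4.26 on the left and 25.0 and 52.8 on the right.

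To ask whether CpG changed V gene levels, stimulated and unstimulated samples of each line were compared with edgeR's quasi-likelihood test over all 31872 tested genes. At an adjusted p under 0.05, 0 of 49 members were called in HG3, MEC2 and PCL12, against 0.00314%, 0.00314% and 0% of all tested genes. DESeq2 and limma-voom also called 0 members. At a nominal p under 0.05, HG3 had 3 members (IGHV5-78 and IGHV3-53 higher, IGLV6-57 lower), against 3.73% of all genes. MEC2 had 3 (IGHVII-44-2 and IGLV3-1 higher, IGLVI-70 lower), against 2.46%, and PCL12 had 1 (IGLV2-23 lower), against 2.09%. Each rested on at most 18 counts in any library of that line, for example IGHV5-78 with 14 counts in CpG replicate 1 of HG3 and 0 in its other 5 libraries.

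The leading genes had no detectable change. In HG3, IGHV1-2 averaged 709.9 ± 398 CPM with CpG and 549 ± 496 CPM in unstimulated cells (SD, n = 3), and had a Log2FC of 0.33 (SE 0.65, edgeR adjusted p = 1, exact two-sided permutation p = 0.6). The replicate ratios on the log2 scale were 0.06, 1.96 and -0.01, the second being that of the library with 20.2% mitochondrial counts. IGLV2-23 changed by a Log2FC of 0.18 (SE 0.53, edgeR adjusted p = 1) and IGLV3-21 by 0.13 (SE 0.58, edgeR adjusted p = 1). In a fit of HG3 alone, the SE was 0.69 for IGHV1-2, 0.41 for IGLV2-23 and 0.38 for IGLV3-21. In MEC2, IGHV4-59 averaged 287 ± 118 CPM with CpG and 314 ± 74.6 CPM in unstimulated cells. Its Log2FC was -0.09 (SE 1.56 in edgeR, and 0.29 in a fit of MEC2 alone). IGKV4-1 averaged 1049 ± 521 and 1343 ± 161 CPM, with a Log2FC of -0.33 (SE 0.82 in edgeR, and 0.33 in a fit of MEC2 alone). In PCL12, IGHV3-30 had a Log2FC of -0.10 (SE 0.56) and IGKV4-1 one of -0.13 (SE 0.82), over all 3 replicates, those with counts of MEC2 V genes included. A fit of PCL12 alone gave SEs of 0.35 and 0.24. The ranges of stimulated and unstimulated libraries overlapped for all 7. With 3 against 3 libraries, an exact permutation test cannot go below 0.1.

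**Figure D5:**
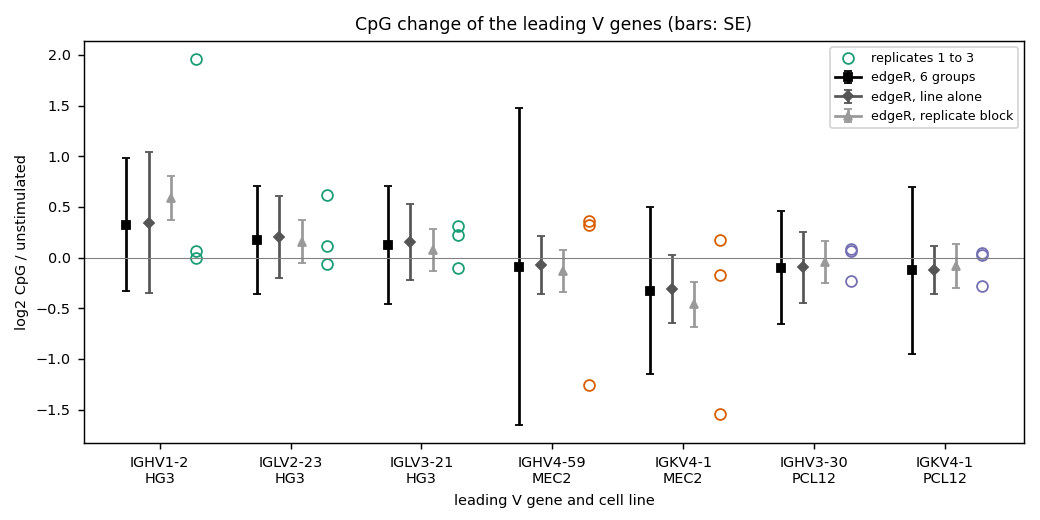
Log2 ratio of CpG-stimulated to unstimulated level for the leading V genes of each line: the edgeR estimates with SE from the fit of 6 groups, of the line alone and with a replicate block, and as circles the ratios of replicates 1, 2 and 3. All estimates of the fit of 6 groups lie within 1 SE of 0, those with the block for IGHV1-2 in HG3 (0.59, SE 0.21) and IGKV4-1 in MEC2 (-0.46, SE 0.22) lie further from 0, and the widest ratios are 1.96 for IGHV1-2 in HG3 and -1.54 for IGKV4-1 in MEC2.

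With the replicate number as a block, the Log2FC of IGHV1-2 in HG3 was 0.59 (SE 0.21, edgeR adjusted p = 0.711) and that of IGKV4-1 in MEC2 was -0.46 (SE 0.22, edgeR adjusted p = 1), so neither was called. In the same fit, 2 low rows were called. IGKV4-1 in HG3 had 14, 0 and 0 counts with CpG against 2, 48 and 7 in unstimulated replicates 1 to 3, and a Log2FC of -2.09 (edgeR adjusted p = 0.0116), against 0.135% of all genes called in that fit. IGLV2-23 in PCL12 had 0, 0 and 0 counts with CpG against 6, 18 and 3 in unstimulated cells, and a Log2FC of -6.06 (edgeR adjusted p = 6.87e-06, a fit to 0 counts that is no bound on the fold), against 0.0471%. Both rows are the leading gene of another line, present here at no more than 0.0764% (IGKV4-1, of PCL12 replicate 1; 0.198% of MEC2) and 0.0563% (IGLV2-23, of HG3) of its level there. With limma-voom and the block, neither was called (adjusted p = 0.991 for IGKV4-1 and 0.654 for IGLV2-23), nor was any other member. IGLV3-21, which goes with IGLV2-23 in HG3, had 10, 2 and 0 counts after CpG in PCL12 and 1, 16 and 0 without it, and overlapped between treatments. In MEC2 the block called 0 members, against 0.333% of all genes.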

How the data were processed

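The authors deposited raw counts, the number of reads assigned to each of 56609 gene symbols in 18 libraries. The submitters' processing notes name FastQC, MultiQC, Trimmomatic, STAR, featureCounts and hg38; versions, the annotation and the handling of duplicates are not given in the sources used here. The labels name a Promega kit for RNA and Lexogen Stranded QuantSeq for libraries, while the methods name a Qiagen kit, a stranded reverse protocol and single reads of 100 nt. Reads that are PCR copies were counted apart where not removed, and how reads shared by near-identical V genes were counted is not given in the sources used here.

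CPM used library totals. Genes with at least 10 counts summed over all libraries (31872) were scaled with TMM and fitted in edgeR 4.0.16 (R 4.3.3) by quasi-likelihood with 6 groups and 12 residual degrees of freedom; p-values were adjusted (Benjamini-Hochberg) over all tested genes. DESeq2 1.42.0, limma-voom (limma 3.58.1), other scalings and filters, a fit per line, each library left out and a replicate block were alternatives. The series text pairs the samples by replicate number; after removal of group means, same-numbered libraries (replicates 1 to 3) correlated at 0.09, 0.06 and 0.20 for HG3. For MEC2 the values were 0.03, -0.08 and 0.33, and for PCL12 0.21, 0.15 and 0.22. The fits were tested on simulated data. Positions, exon lengths and sequences come from GENCODE 44; Biopython 1.88 aligned them, and all 49 members were found there. Members and lists were chosen with earlier results of these data known. Named were the 3 highest members per locus and line, members with an adjusted p under 0.05, those at the threshold, the leading D, J and C rows, and listed context genes; the nominal calls, and minor rows by sequence likeness, were named after their values were seen. PCL12 replicate 1 defined the line's levels, a choice made with the data in view. Some listed genes are not reported here and were left out of the lists' counts.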

Additional observations from a re-analysis of the deposited data

How the results depend on the processing

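The 0 members called after CpG became 1 in HG3 and 1 in PCL12 with the replicate block and with no filter; the cause was not tested. The block changed no other call, and limma-voom with the block, an alternative chosen after seeing the data, called 0 members in each line. At 1 CPM in at least 1 library in place of 10 counts, 25 members would remain. Against the MEC2 library of the same treatment and number, IGHV4-59 in PCL12 replicates 2 and 3 had a median of 33.7% in place of 27.2%. The Log2FC of leading genes changed sign in PCL12 with limma-voom (IGHV3-30, 0.020) and with replicates 2 and 3 alone (IGHV3-30, 0.066; IGKV4-1, 0.037). With 1 library left out in turn, it ran from -0.20 to 1.32 for IGHV1-2 and from -0.19 to 0.65 for IGLV2-23 in HG3, from -0.37 to 0.17 for IGHV4-59 and from -0.54 to 0.020 for IGKV4-1 in MEC2, and from -0.40 to 0.36 for IGHV3-30 and from -0.33 to 0.24 for IGKV4-1 in PCL12. Over all these settings, adjusted p for the leading genes lay between 0.711 and 1. Rows under 20 counts are limited by depth, and V genes close in sequence by the assignment of reads.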

Other observations

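On the chromosome, the IGHV rows between a leading heavy V gene and the J segments were compared with those on its far side. In HG3, 0 of the 2 rows on the J side of IGHV1-2 had a count, and 2534 counts of other IGHV rows lay on the far side, 2078 of them on IGHV1-3. In PCL12 replicate 1, 17.5% of the other heavy V counts lay on the J side of IGHV3-30 (219 counts, 38 rows, against 74 rows on the far side), and IGHV3-66 was the highest row on the far side with 272. In MEC2, 74.2% of the other heavy V counts (1626) lay on the J side of IGHV4-59, which holds 81 rows against 31 on the far side, with IGHV4-34 the highest at 587 counts. These are descriptions of single lines without a test.

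IGLL5, a gene at the lambda constant cluster, stood at 7.48 to 21.3 CPM in the 6 PCL12 libraries, at 0 to 1.21 CPM in MEC2 and at 0 to 0.0242 CPM in HG3, the line that used lambda. IGLC2 was at 1.83 to 6.82 CPM in the 6 PCL12 libraries and at or under 0.115 CPM in MEC2.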
